A study of Mus musculus with 3 samples.

Results

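Far intergenic DLX3 peaks are sites where a DLX3 antibody enriched DNA a long way from any known protein-coding gene and outside every H3K4me3 peak. They were chosen from the deposited DLX3 peak list by 3 conditions. A peak shared no base with an H3K4me3 peak, its centre lay outside all protein-coding gene spans, and that centre was more than 20 kb from the nearest protein-coding gene end. Of 18087 DLX3 peaks, 3269 met all 3 conditions (18.1%, 95% Wilson interval 17.5 to 18.6), and they covered 2.04 Mb. The rest of the list fell into 7615 peaks that touched H3K4me3, 5000 unmarked peaks inside a gene and 2203 unmarked peaks outside genes but within 20 kb of one. Because overlap, position and peak calls chose the peaks, their positions and scores are described here without tests.

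Wild-type BALB/c mice were the source of the cells, which were suprabasal keratinocytes, the epidermal cells that have left the basal layer and are differentiating. The DLX3 antibody gave 1 library with a peak list, the H3K4me3 antibody gave 1 library with a list of 16735 peaks, and the third library, made with IgG, was not analysed here. The series text describes newborn skin and a Percoll gradient, whereas the sample labels call the animals adult. Cells were cross-linked with 1% formaldehyde, sonicated and immunoprecipitated. With 1 library per antibody there was no replicate spread, and every interval given covers counting error only. In such a bulk sample, signal in few cells and weak signal in many cells cannot be told apart.

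DLX3 is a homeodomain protein that regulates transcription in differentiating keratinocytes, hair follicles, teeth and bone, and homeodomain proteins typically contact DNA with a TAATT-type core. H3K4me3, trimethylated lysine 4 of histone H3, marks the start sites of active genes. Distal regulatory elements such as enhancers can lie far from the gene they control and usually carry little H3K4me3. The gene nearest to a distal site is often, but not always, the one it acts on, so the neighbouring genes below are positions and not targets.

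The labelled cell type was checked on the H3K4me3 list. A peak lay within 1 kb of a gene end for 15 of 16 keratinocyte marker genes, among them Krt5, Krt14, Krt1, Krt10, Lor and Ivl, and Trp63 was the exception. Over all 21523 protein-coding genes the share was 60.3%. The 1 kb window leaves out H3K4me3 deeper inside a span, so Trp63 is not shown to lack the mark. H3K4me3 also lay at 5 of 7 fibroblast markers (Col1a1, Col1a2, Pdgfra, Dcn and Twist2), at 3 of 6 melanocyte markers, at 3 of 6 neuronal markers, at 1 of 6 endothelial markers and at 0 of 7 immune markers. The part of other cell types in the distal peaks was not tested.

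Some distal peaks contain the start of a long noncoding RNA (lncRNA), and for those the underlying DNA can be shown. In 49 of them a RefSeq promoter window (GRCm38.p6, the assembly of mm10), from 250 bases before to 50 bases after a transcript start, lay wholly within the peak. The 6 windows printed here were picked because they carry the motifs compared next and lie in high-scoring peaks. Each is given 5′ to 3′ in the direction of the lncRNA, and capitals mark matches to the searched motifs on either strand. The Gm34022 window lies at chr13:53533218-53533517 (minus strand), in the peak near Msx2 with a score of 397.64, and holds an AP-1 match. The Gm40403 window lies at chr12:40248087-40248386 (minus strand), in the peak near Ifrd1 with a score of 197.59, and also holds an AP-1 match. The Gm12589 window lies at chr11:121777499-121777798 (plus strand), in the peak near Ptchd3 with a score of 215.65, and holds an AP-1 match and a homeodomain core. The Gm33045 window lies at chr13:110626995-110627294 (plus strand), in the peak near Plk2 with a score of 303.22, and holds homeodomain cores, one AP-2 match and E-boxes. The Gm38543 window lies at chr12:85451801-85452100 (plus strand), in the peak near Fos with a score of 339.93, and holds Grhl, Tead and Klf/Sp matches. The Gm41436 window lies at chr16:26251668-26251967 (plus strand), in the peak near Cldn1 with a score of 235.8, and holds an AP-2 match.
Gm34022: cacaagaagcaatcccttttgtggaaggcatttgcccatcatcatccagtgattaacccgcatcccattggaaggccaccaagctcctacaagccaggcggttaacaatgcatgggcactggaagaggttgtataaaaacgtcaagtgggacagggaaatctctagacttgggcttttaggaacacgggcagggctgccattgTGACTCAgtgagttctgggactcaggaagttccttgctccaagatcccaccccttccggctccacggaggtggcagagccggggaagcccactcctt
Gm40403: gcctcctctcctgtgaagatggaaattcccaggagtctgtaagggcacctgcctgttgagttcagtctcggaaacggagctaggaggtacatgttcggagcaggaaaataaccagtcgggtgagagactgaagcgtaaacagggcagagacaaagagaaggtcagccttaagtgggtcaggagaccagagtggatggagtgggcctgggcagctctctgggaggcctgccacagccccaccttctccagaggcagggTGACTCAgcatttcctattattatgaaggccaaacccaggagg
Gm12589: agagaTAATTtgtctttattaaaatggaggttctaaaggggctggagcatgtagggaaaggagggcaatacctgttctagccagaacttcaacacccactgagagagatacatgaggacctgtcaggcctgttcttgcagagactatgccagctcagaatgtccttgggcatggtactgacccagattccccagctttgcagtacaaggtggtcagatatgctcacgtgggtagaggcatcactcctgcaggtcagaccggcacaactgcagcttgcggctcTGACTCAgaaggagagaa
Gm33045: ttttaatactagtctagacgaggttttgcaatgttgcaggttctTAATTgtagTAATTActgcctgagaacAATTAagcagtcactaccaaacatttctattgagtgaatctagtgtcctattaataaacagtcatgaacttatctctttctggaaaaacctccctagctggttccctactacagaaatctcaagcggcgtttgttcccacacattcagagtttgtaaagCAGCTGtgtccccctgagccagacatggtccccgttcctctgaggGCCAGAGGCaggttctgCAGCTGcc
Gm38543: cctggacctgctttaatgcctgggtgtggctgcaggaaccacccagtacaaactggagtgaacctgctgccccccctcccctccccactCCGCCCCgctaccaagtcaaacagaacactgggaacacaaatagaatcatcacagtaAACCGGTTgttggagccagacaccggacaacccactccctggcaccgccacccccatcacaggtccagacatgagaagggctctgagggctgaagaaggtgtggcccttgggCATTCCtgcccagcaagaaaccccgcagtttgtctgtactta
Gm41436: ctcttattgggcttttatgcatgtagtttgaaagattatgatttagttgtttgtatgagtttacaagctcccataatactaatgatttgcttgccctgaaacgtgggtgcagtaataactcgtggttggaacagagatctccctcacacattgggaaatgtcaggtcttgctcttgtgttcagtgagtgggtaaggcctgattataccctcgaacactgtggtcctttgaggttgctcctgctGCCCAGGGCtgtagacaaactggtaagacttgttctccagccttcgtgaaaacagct

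AP-1 motifs were more frequent in these windows than in each other set of start regions of the same length. The AP-1 motif TGACTCA, bound by Jun and Fos proteins, was present in 13 of 49 windows within distal peaks (26.5%, 16.2 to 40.3). It was present in 138 of 3481 windows within DLX3 peaks that carried H3K4me3 (3.96%, 3.37 to 4.66), in 269 of 3980 windows of far intergenic lncRNA genes without a DLX3 peak (6.76%, 6.02 to 7.58), and in 5.17% of the windows of all 27025 genes. The homeodomain core TAATT was found in 19 of the 49 windows (38.8%, 26.4 to 52.8), against 12.2% of windows in DLX3 peaks with H3K4me3, 41.1% of far lncRNA windows without DLX3 and 27.3% of all windows. The distal share of TAATT therefore overlapped that of lncRNA starts with no DLX3 peak within the counting error. The AP-2 motif GCCNNNGGC was in 8 of the 49 windows (16.3%, 8.51 to 29.0), against 29.6% of windows in DLX3 peaks with H3K4me3 and 6.61% of far lncRNA windows without DLX3. The Klf/Sp motif GGGGCGG was in 7 (14.3%, 7.10 to 26.7), against 56.8% of windows in DLX3 peaks with H3K4me3 and 3.47% of far lncRNA windows without DLX3.

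The Tead motif GGAATG was in 11 of the 49 windows (22.4%, 13.0 to 35.9), against 11.2% of windows in DLX3 peaks with H3K4me3 (10.2 to 12.3), 17.4% of far lncRNA windows without DLX3 and 14.6% of all windows. The Runx motif TGTGGTT was in 4 (8.16%, 3.22 to 19.2), against 2.70% in DLX3 peaks with H3K4me3 (2.21 to 3.29), 6.68% of far lncRNA windows without DLX3 and 5.37% of all windows. The E-box CAGCTG was in 7 (14.3%, 7.10 to 26.7), against 13.1% in DLX3 peaks with H3K4me3, 17.8% of far lncRNA windows without DLX3 and 16.1% of all windows, all within its interval. The Grhl motif AACCGGTT and the p63 motif were each in 1 window. The C/EBP motifs TTGCGCAA and TTGCACAA, the Stat motif TTCCNGGAA and the CTCF motif were in 0 of 49 windows, with a 95% Wilson upper bound of 7.27% for each. Base composition also differed between the sets. The median GC content was 51.7% in the 49 windows, 64.7% in DLX3 peaks with H3K4me3, 46.3% at far lncRNA starts without DLX3 and 52.7% over all genes, and its part in the shares was not tested. The windows are lncRNA starts, so they describe a small fraction of the 3269 peaks.

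**Figure D1:**
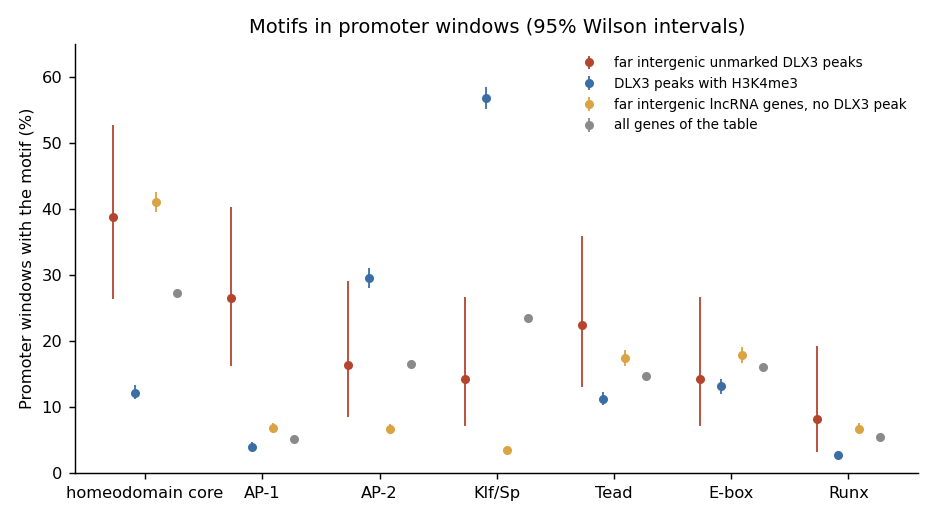
Share of 300-base start windows, in percent, that hold a motif (the motifs named along the horizontal axis), for windows within far intergenic DLX3 peaks (n = 49), within DLX3 peaks with H3K4me3 (n = 3481), at far lncRNA genes without a DLX3 peak (n = 3980) and for all genes (n = 27025); bars are 95% Wilson intervals. The AP-1 share of 26.5% within distal peaks stands above the interval of each other set, while the TAATT share of 38.8% lies beside the 41.1% of lncRNA starts without DLX3.

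The distal peaks were of middling strength within the DLX3 list. The deposited score, whose size grows with the strength of the peak call, had a median of 79.79 in the distal peaks (interquartile range 61.74 to 117.17). The median was 93.79 in peaks with H3K4me3, 75.33 in unmarked peaks inside genes and 76.94 in unmarked peaks within 20 kb of a gene. Distal peaks reached the median of the whole list, 83.35, in 1510 cases (46.2%, 44.5 to 47.9), against 58.9% of peaks with H3K4me3, 41.5% of unmarked peaks inside genes and 44.1% of unmarked peaks near genes. Of the distal peaks, 279 (8.53%) were in the top 10% of all scores, against 1068 of the 7615 peaks with H3K4me3. Their median width was 599 bp, against 687 bp for peaks with H3K4me3 and 581 bp for unmarked peaks inside genes.

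The rule has sharp limits. The peaks nearest to the distance limit on its inner side were centred 20002 bp from Grpel1, 20008 bp from Olfr225 and 20078 bp from Ifnar2, with scores of 110.56, 199.49 and 67.73. The nearest on the outer side were centred 19997 bp from Yeats4, 19996 bp from Plpp7 and 19995 bp from Echdc3, with scores of 84.47, 85.13 and 50.16. At the other limit, the distal peak closest to H3K4me3 lay 25 bp from it, near Cyria. Such cases were few, since 36 peaks lay within 1 kb of H3K4me3 and 143 within 5 kb. The median distance to H3K4me3 was 67711 bp, against 11589 bp for unmarked peaks within 20 kb of a gene.

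The highest-scoring distal peaks included wide peaks in unusual regions, and others near genes of several kinds. A score of 3100, the maximum of the DLX3 list, was reached by chr17:39842883-39848942, which is 6060 bp wide and covers the annotated ribosomal RNA pseudogene Rn18s-rs5 and the lncRNA AY036118. It was also reached by chr7:12010148-12018095, which is 7948 bp wide and lies 27178 bp from the vomeronasal receptor gene Vmn1r77. Within 9.703 kb at the start of the sequenced part of chromosome 6, 4 peaks at least 231652 bp from Samd9l included scores of 1472.43, 903.99 and 400.17. The part of repeated DNA in these peaks was not tested, and the IgG library was not analysed here.

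Away from those regions, the strongest peak lay 58569 bp from Irx2, an Iroquois homeobox gene (chr13:72691698-72693832, score 959.68). Others were near Fam53a (741.43), Mylip, which encodes a ubiquitin ligase for the LDL receptor (731.44), and Irx1, a second Iroquois gene (643.46, at 235023 bp). Kmt2e, a chromatin regulator gene, had a peak of 638.22 at 31185 bp, and Plpp3, a lipid phosphatase gene, one of 541.85 at 235512 bp. Sox4, an HMG-box factor gene, had a peak of 506.33 at 249074 bp, and Tle3, a Groucho-type corepressor gene, one of 488.85 at 30847 bp. Further down the ranking were peaks near Ptk2, which encodes focal adhesion kinase (474.04), Fgfbp1, a carrier of fibroblast growth factors (459.8), Ubl3 (459.42), Fosl2, an AP-1 subunit gene (446.25), Ino80d (403.39), Rplp1 (402.07) and Anapc13 (401.27).

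Distal peaks thinned out with distance from genes. The median distance to the nearest gene end was 70880 bp (interquartile range 36813 to 146991), and the farthest peak was 1741389 bp away. Far intergenic sequence, meaning all sequence more than 20 kb from any protein-coding gene, amounted to 1148.59 Mb and held 2.85 peaks per Mb. Between 20 and 50 kb from a gene there were 1204 peaks, or 5.13 per Mb of such sequence. The density was 4.16 per Mb at 50 to 100 kb, 3.25 at 100 to 200 kb, 1.62 at 200 to 500 kb and 0.402 at 500 to 1000 kb. Beyond 1000 kb there were 3 peaks, or 0.0443 per Mb.

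Peaks were denser on the sequence nearest to genes with H3K4me3. The nearest gene had an H3K4me3 peak within 1 kb of an end, and is called marked here, for 2604 of the 3269 peaks (79.7%, 78.2 to 81.0). A gene with H3K4me3 only deeper inside its span counts as unmarked. Of all 8706 protein-coding genes that border far intergenic sequence, 4946 were marked (56.8%, 55.8 to 57.8). Sequence nearest to marked genes made up 680.144 Mb and held 3.83 distal peaks per Mb, against 1.42 per Mb in the 468.445 Mb nearest to unmarked genes. The density was higher beside marked genes at every distance: 7.34 against 2.26 per Mb at 20 to 50 kb, 4.33 against 1.67 at 100 to 200 kb, and 0.523 against 0.221 at 500 to 1000 kb. The marked share varied little with peak strength, with 81.4% in the highest 25% of scores and 77.9% in the lowest 25%. Unmarked DLX3 peaks within 20 kb of a gene gave a similar share, 78.1% (76.3 to 79.8).

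**Figure D2:**
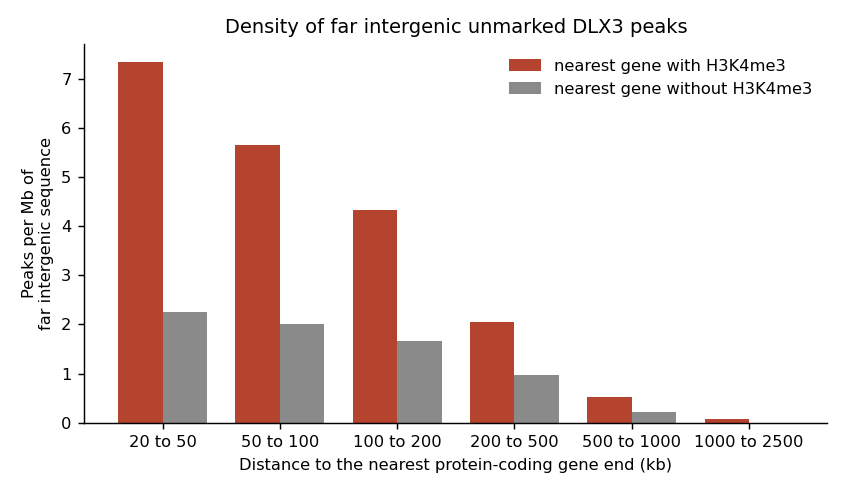
Far intergenic DLX3 peaks per Mb of far intergenic sequence (vertical axis) by distance from the nearest protein-coding gene end in kb (horizontal axis), for sequence whose nearest gene has H3K4me3 within 1 kb of an end and for sequence whose nearest gene has none. The density falls with distance in both, from 7.34 per Mb beside marked genes and 2.26 beside unmarked genes at 20 to 50 kb.

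A smaller difference in the same direction was seen inside single gene-free intervals, where both borders share one stretch of DNA. In 2030 intervals 1 border gene was marked and the other was not. Cut at the midpoint, these intervals gave 793 peaks on the side of the marked gene and 504 on the other (61.1% on the marked side, 58.5 to 63.8), over 245.997 Mb of far sequence each, or 3.22 against 2.05 per Mb. More peaks lay on the marked side in 245 intervals and on the unmarked side in 164, with 43 tied. Intervals with both borders marked held 4.19 peaks per Mb, those with 1 marked border 2.64 and those with neither 0.711. Peaks of one interval are not independent of each other, so the Wilson interval of this share is too narrow.

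Few genes neighboured a distal peak at all. Of the 8706 genes that border far intergenic sequence, 1471 were nearest to at least 1 distal peak (16.9%, or 6.83% of all 21523 protein-coding genes), and 147 were nearest to 5 or more (1.69%). The 25 genes nearest to 10 or more held 352 peaks (10.8%). Of those 25 genes, 22 were marked by H3K4me3 and 21 had some DLX3 peak within 5 kb of an end (84.0%), a share that was 54.8% for genes with 2 to 4 distal peaks, 40.8% for genes with 1 and 24.9% for genes with none. Genes with many peaks also bordered more far sequence, with a median of 529.63 kb for the 25 and 27.6735 kb for genes with none.

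Transcription factor genes of the keratinocyte neighboured the most distal peaks in all of the lists examined, although hair follicle regulators had more per Mb (20.4 against 14.8), as had epidermal keratins on 1 peak. They share 10 genes with the hair follicle regulators. Of 59 such genes that border far sequence, 44 were nearest to a distal peak, against 16.9% of all bordering genes, and 21 were nearest to 5 or more, against 1.69%. Together they neighboured 254 peaks, or 14.8 per Mb of their far sequence, against 2.85 per Mb over all genes. Without the 10 shared genes the count was 36 of 50. Among the 25 genes with 10 or more peaks, 10 were in this list. The 59 genes bordered a median of 233.66 kb of far sequence, against 35.8 kb over all bordering genes. Of the 59, 52 were marked, against 56.8% of all bordering genes. Length and mark also differed between the lists below, and their part in the list values was not tested.

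Gata3, a zinc-finger factor gene of epidermal and hair follicle differentiation (chr2:9857078-9887953), had the most, with 31 distal peaks. They all lay at lower coordinates than the gene, from 21816 to 861043 bp away, with a median score of 76.98 and a highest score of 270.46. The nearest 5 formed a group of 22.909 kb and another 6 a group of 16.149 kb, and the others lay singly or in pairs between and beyond these groups. Gata3 carried H3K4me3, but no DLX3 peak lay within 5 kb of its ends.

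Msx2, a homeobox gene of skin appendages, had 18 distal peaks, all at higher coordinates and 34634 to 244972 bp away. Their median score of 124.795 stood above the 79.79 of all distal peaks, and the strongest reached 397.64, 383.46 and 284.59. The strongest contains the Gm34022 start shown above. Runx1, a runt-domain factor gene of hair follicle stem cells, had 15 peaks with scores up to 382.56. It was one of 3 genes with 10 or more peaks that lacked H3K4me3 within 1 kb of an end, beside Ofcc1 and Haao. H3K4me3 did lie inside the Runx1 span, 204517 bp from the distal peak centred 78215 bp from the gene. Cebpb, a leucine-zipper factor gene of keratinocyte differentiation, had 14 peaks within 109052 bp, or 139.8 per Mb of its far sequence. Its scores ran from 50.8 to 378.2.

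Klf4, a factor gene of barrier formation, had 14 peaks between 30522 and 581407 bp away, with a top score of 349.79. Nfib, a nuclear factor I gene, had 12 with a top score of 245.8, and Sox9, a hair follicle stem cell factor gene, had 12 between 100641 and 218442 bp with a top score of 181.27. Ets2, an ETS-domain gene, had 13 within 124623 bp, with a top score of 374.05. Trp63, the master regulator gene of stratified epithelia, had 2 peaks of 86.4 and 58.65 at 20307 and 59569 bp. Dlx3 itself had 0 distal peaks and bordered 1.636 kb of far sequence.

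**Figure D3:**
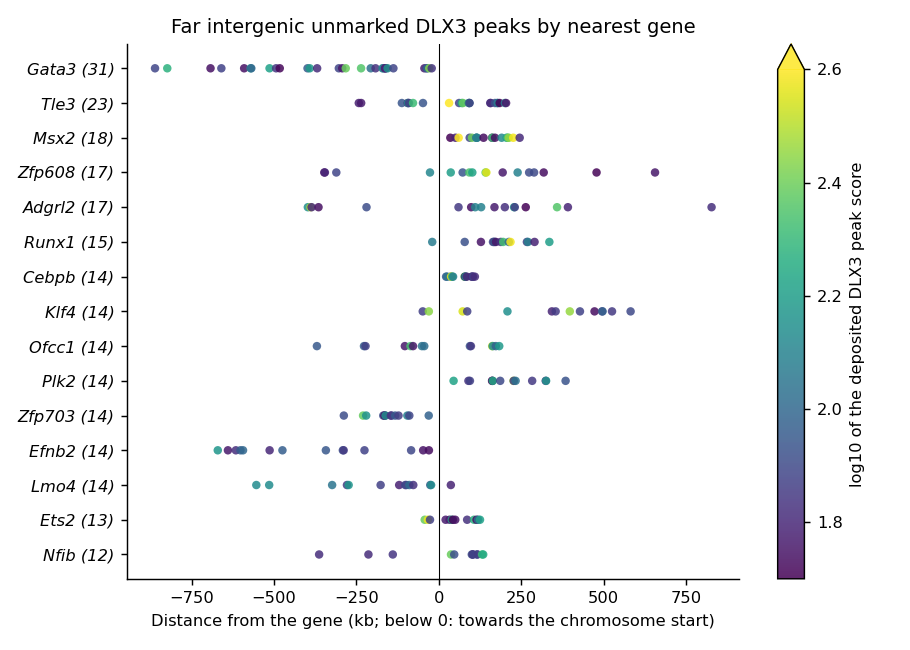
Far intergenic DLX3 peaks by distance from their nearest gene in kb (horizontal axis, below 0 towards the chromosome start) for the 15 genes with the most such peaks, one row per gene with its number of peaks; each point is a peak, coloured by the log10 of its deposited score, with the highest scores sharing the last colour. Gata3 has 31 peaks spread from 21816 to 861043 bp, while the 14 of Cebpb end at 109052 bp.

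Other genes with many distal peaks were outside the factor list. Tle3 had 23, on both sides of the gene, with a median score of 84.12. Adgrl2, a latrophilin adhesion receptor gene, had 17, and so had Zfp608. Ofcc1 (14), a gene named for orofacial clefts, lies beside Tfap2a, which encodes AP-2α. The interval between Ofcc1 and Tfap2a held 13 distal peaks, 7 of them on the Tfap2a side. Plk2, a stress-responsive kinase gene, had 14 peaks with a top score of 303.22.

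AP-1 and immediate-early genes also bordered many peaks, with 12 of 18 nearest to one and 48 peaks in all, or 12.9 per Mb. Myc had 12 peaks between 71563 and 758118 bp, with a top score of 239.36. Btg1, an antiproliferative gene, had 8, and Zfp36l1, which encodes an mRNA decay factor, had 6. Jun had 5 peaks, of 244.64 at 25185 bp, 228.18 at 23909 bp, 114.56 at 101622 bp, 67.72 at 102349 bp and 55.09 at 251959 bp, and the 2 strongest were the closest to the gene.

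Signalling genes followed. Of Notch, Wnt, BMP and hedgehog genes, 31 of 45 with far sequence were nearest to a distal peak, with 93 peaks or 10.7 per Mb. Hes1, a Notch target gene, and Jag1, a Notch ligand gene, had 10 each, Bmp7, a BMP ligand gene, had 8 with a top score of 358.66, and Lef1, a Wnt effector gene, had 5. Of growth factor receptors and ligands, 12 of 24 were nearest to a peak (10.6 per Mb). Their leading genes were feedback inhibitors, namely Spry2 with 7, Dusp6 with 6, Errfi1 with 6 and Lrig1 with 5. Hair follicle regulators counted 17 of 26 with 118 peaks (20.4 per Mb), led by Gata3, Msx2, Runx1 and Sox9.

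Structural genes of the keratinocyte neighboured fewer peaks than the lists above. Each of their lists still had more per Mb than the 2.85 of all genes. That value averages over all far sequence, in which gene-free intervals of 40 to 100 kb held 6.40 per Mb. The part of interval length in the values of these lists was not tested. Of cell junction genes, 10 of 20 were nearest to a distal peak (9.55 per Mb), with 7 at Gja1, which encodes connexin 43, 5 at Ctnnb1, the β-catenin gene, and 4 each at the claudin genes Cldn1 and Cldn23. The Cldn1 peaks had scores of 235.8, 96.64, 65.57 and 51.8, and the strongest contains the Gm41436 start shown above. Of cornified envelope and barrier lipid genes, 6 of 22 were nearest to one (27.3%, 5.66 per Mb), against 16.9% of all bordering genes. These peaks included 2 at Elovl4, a gene for very long fatty acid synthesis, 2 at Calml3, and 1 each at Rptn and Ugcg. Hemidesmosome and matrix attachment genes counted 1 of 9 (11.1%, 3.95 per Mb), with 2 peaks at Cd44, while Itga6, Itga3 and Itgb1 had 0. Epidermal keratins counted 1 of 5 (20%), a peak of 199.52 at Krt80, and their 59.5 per Mb rest on that 1 peak. Most keratin genes, Krt5, Krt14, Krt1 and Krt10 among them, bordered no far intergenic sequence, so they could not be counted.

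Lists for other tissues and cell types lay on both sides of the 16.9% of all genes, in part on few genes. Per Mb, immune (5.18), endothelial (4.41) and fibroblast markers (3.51) lay above the 2.85 of all genes, while tooth and bone genes (0.980), melanocyte markers (0.879) and olfactory and vomeronasal receptors (0.360) lay below it. Neural adhesion and channel genes bordered 67.2 Mb of far sequence but only 4 of 50 were nearest to a distal peak, at 0.0893 per Mb, led by Cntnap2 and Slitrk6 with 2 each. They bordered a median of 1132 kb per gene, against 35.8 kb over all genes. Long gene-free intervals were sparse in general, with 1.27 peaks per Mb at 1000 to 2000 kb and 0.549 above that. The part of length in the low density, or in the list densities above 2.85 per Mb, was not tested. In that list 21 genes were marked by H3K4me3. Olfactory and vomeronasal receptors counted 5 of 481, tooth and bone genes 2 of 18 (Fam20c and Runx2, with 1 each) and melanocyte markers 2 of 10 (Sox10 and Ednrb). Fibroblast markers counted 3 of 15 with 6 peaks, 4 of them near Dcn, and immune markers 1 of 4, with 3 peaks near Ptprc. Endothelial markers counted 2 of 10 with 5 peaks. Of those 5, 4 lay near Egfl7, in the interval between Notch1 and Egfl7. Egfl7 carried no H3K4me3 within 1 kb of an end, although H3K4me3 lay inside its span.

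**Figure D4:**
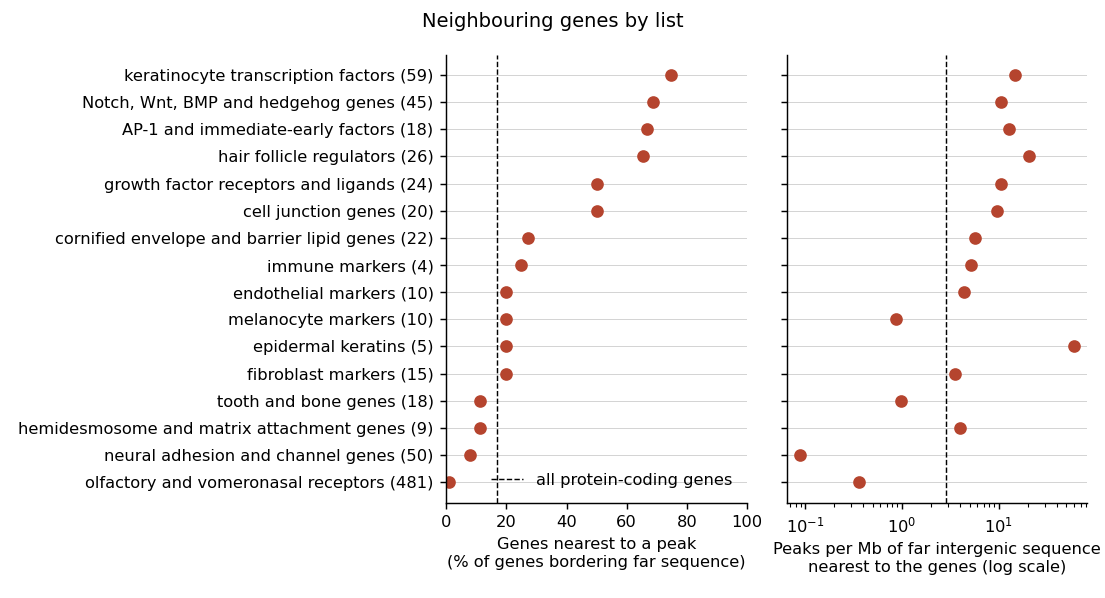
For each gene list, the share of its genes bordering far intergenic sequence that were nearest to at least 1 far intergenic DLX3 peak, in percent (left), and peaks per Mb of the far intergenic sequence nearest to those genes (right, log scale). Dashed lines give all bordering genes, 16.9% and 2.85 per Mb, and the number after each list is its genes with far sequence. Keratinocyte factors stand at 44 of 59, neural adhesion and channel genes at 4 of 50, and the high density of epidermal keratins rests on 1 peak.

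Distal peaks were unevenly spread over the gene-free sequence. Of 5782 gene-free intervals with far intergenic sequence, 1199 held at least 1 peak (20.7%). The 190 intervals with 5 or more held 1539 peaks (47.1%) in 9.77% of the far sequence, and the 41 with 10 or more held 581 (17.8%) in 2.77% of it. Both sets were picked by their peak counts, so a surplus over their length is built in. Gene deserts, taken as gene-free intervals of at least 1 Mb, numbered 268. They held 443 peaks (13.6%, 12.4 to 14.8) in 41.1% of the far sequence, or 0.939 per Mb, and 164 of them held none. By contrast, intervals of 100 to 200 kb held 5.09 per Mb.

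The most peak-rich desert lies between Celf2, which encodes an RNA-binding protein, and Gata3 (chr2:7396342-9857077). Its 2460.74 kb held 31 distal peaks, all on the Gata3 side, and 0 H3K4me3 peaks. The desert between Slc10a2 and Efnb2, an ephrin ligand gene, spans 3511.95 kb and held 14 peaks, all on the Efnb2 side. The interval between Runx1 and Setd4 likewise held 14 peaks on the Runx1 side and 0 on the other.

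The other intervals with the most peaks were shorter than 1 Mb. The interval between Cebpb and Ptpn1, a tyrosine phosphatase gene, held 22 peaks in 240.317 kb, the highest density of intervals with at least 5 peaks and 100 kb of far sequence, at 109.8 per Mb. Next by count were Plk2 and Actbl2 with 21, Tle3 and Rplp1 with 20, Msx2 and Drd1 with 20, Thap1 and Zfp703 with 19, Haao and Zfp36l2 with 17, Cd83 and Jarid2 with 17, Uaca and Tle3 with 16, and Enc1 and Arhgef28 with 16. The Cebpb interval also held 7 H3K4me3 peaks, whereas the Plk2 interval and that between Tle3 and Rplp1 held 0. Of the 20 between Msx2 and Drd1, a dopamine receptor gene, 18 were on the Msx2 side. Next by density were Ets2 and Psmg1 with 68.5 per Mb, Haao and Zfp36l2 with 57.6, Slc45a1 and Errfi1 with 55.7, E2f3 and Mboat1 with 54.4, Sv2b and Akap13 with 47.1, Rad51b and Zfp36l1 with 45.6, Map4k3 and Tmem178 with 45.5, Anxa3 and Bmp2k with 44.8, and Tle3 and Rplp1 with 44.0.

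Some very long intervals held no distal peak. The longest of them, between the protocadherin genes Pcdh20 and Pcdh9, spans 4542.3 kb with 0 DLX3 peaks and 0 H3K4me3 peaks. The next longest lies between Celf4 and Pik3c3 and spans 4511 kb, with 0 DLX3 peaks and 1 H3K4me3 peak.

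**Figure D5:**
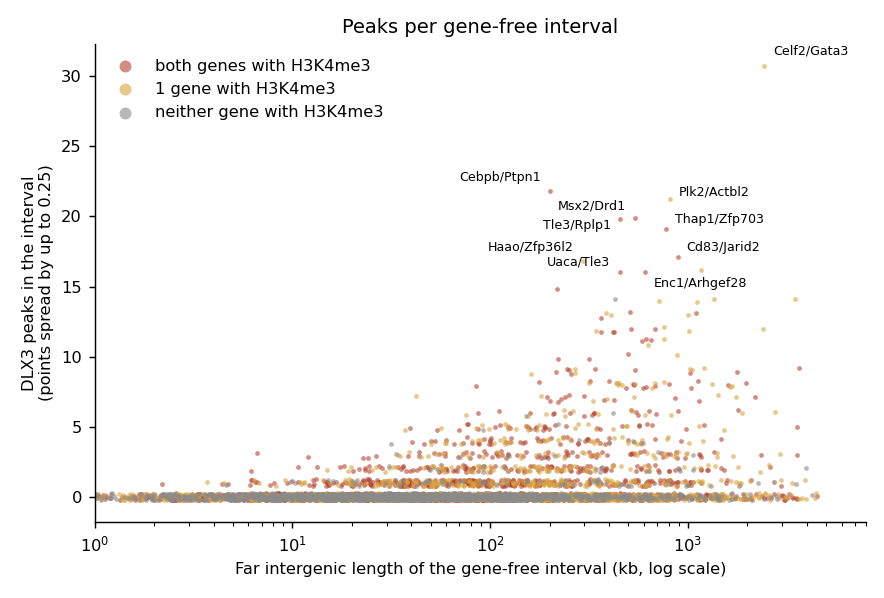
Far intergenic DLX3 peaks per gene-free interval (vertical axis, points spread slightly to part them) by the interval's far intergenic length in kb (horizontal axis, log scale), coloured by whether both, 1 or neither border gene has H3K4me3. The interval between Celf2 and Gata3 holds 31 peaks, and the one between Cebpb and Ptpn1 holds 22 in 240.317 kb.

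Iroquois genes bordered several rich intervals. The interval between Irx3 and Irx5 held 12 peaks, or 23.2 per Mb, with a top score of 325.62. Between Irx2 and Irx4 there were 11, 9 of them on the Irx2 side, and between Irx1 and Irx2 there were 5. In contrast, the intervals between Irx5 and Irx6 and between Irx6 and Mmp2 held 0. These intervals were picked after their values were seen.

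By chromosome, chromosome 13 stood highest, with 317 distal peaks, or 5.48 per Mb of its far sequence, and 36.8% of its DLX3 peaks were distal against 18.1% over the list. It carries Msx2, Plk2, Irx1, Irx2, Sox4, Enc1, Jarid2, Ofcc1 and Klf6. Chromosome X stood lowest, with 32 peaks or 0.329 per Mb, but it had only 153 DLX3 peaks in all, and 20.9% of them were distal. Chromosome 19 had the smallest distal share of its DLX3 peaks, 6.74%.

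Many distal peaks lay in short groups. A gap of at most 10 kb joined 1205 peaks to another (36.9%, 35.2 to 38.5), in 383 pairs, 89 triples and 39 groups of 4 or more. The median distance between a peak and its nearest distal neighbour was 19941 bp. The largest group held 7 peaks in 40.892 kb between Ets2 and Psmg1. Next were 6 peaks in 10.719 kb near Ror2, which encodes a Wnt5a receptor, with a top score of 216.4, 6 in 19.279 kb near Neo1, the neogenin gene, and the 6 near Gata3. Groups of 5 lay near Klf6, with a top score of 367.27, and near Gata3, Haao, Ptpn1, Barx2, a homeobox gene, and Med4, and between Notch1 and Egfl7.

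Distal peaks often fell in lncRNA genes. Of the 3269 peaks, 781 were centred inside an annotated lncRNA span (23.9%, 22.5 to 25.4), and such spans cover 11.6% of far intergenic sequence. A lncRNA start lay within 1 kb of 127 peaks (3.88%). Of 4118 far intergenic lncRNA genes, 140 had a distal peak within 1 kb of a start and 198 had H3K4me3 there, with 7 in both groups, a number held down by the rule, which left out DLX3 peaks that touch H3K4me3. Where the rule had also required 20 kb from noncoding genes, 1252 peaks would have been left.

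A small number of distal peaks neighboured microRNA genes. Of 215 hairpins in far intergenic sequence, 24 lay within 10 kb of a distal peak, and 15 peaks were involved. The mature sequences shown are those of the epithelial miR-205, the p53-responsive miR-34a, the clustered miR-193b and miR-365 and the clustered miR-221 and miR-222, from RefSeq, with the seed (bases 2 to 8) in capitals.
miR-205-5p: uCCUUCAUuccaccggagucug
miR-34a-5p: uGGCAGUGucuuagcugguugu
miR-193b-3p: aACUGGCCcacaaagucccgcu
miR-365-3p: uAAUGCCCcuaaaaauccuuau
miR-221-3p: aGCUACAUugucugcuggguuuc
miR-222-3p: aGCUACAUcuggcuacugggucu

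Mir205 (chr1:193507463-193507530, minus strand) lay 8406 bases from a peak with a score of 60.32, and H3K4me3 covered the hairpin itself. Mir34a lay 6293 bases from a peak of 76.65. Mir365-1 (chr16:13453840-13453926, plus strand) overlapped a peak of 51.7, and Mir193b lay 4266 bases from the same peak with H3K4me3 over its hairpin. Mir221 and Mir222, whose 3p arms share the seed GCUACAU, lay 4353 and 3770 bases from a peak of 52.9 on chromosome X. These scores were below the distal median of 79.79. The highest score near a hairpin was 276.04, 2506 bases from Mir7218. A peak of 218.74 lay within 10 kb of 7 hairpins of the imprinted chromosome 12 cluster near Rtl1.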

How the data were processed

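Per the labels' protocols, 1 ChIP-seq library was made for each of DLX3, H3K4me3 and IgG. Bowtie 1.1.2, MACS 1.4.2, HOMER and build mm10 are named per the submitters' processing notes. Tool settings are not stated there. The names of the deposited lists contain IgG, which may mean that it was the control of the calls, but no label says so. The authors deposited 1 list each for the DLX3 and H3K4me3 libraries, with a score per peak. DLX3 scores ran between 50.01 and 3100 and H3K4me3 scores between 50 and 3233.06, and no score was set against one of the other list. The lists hold no read counts, so depth is unknown and precision is limited by peak numbers.

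Starts were converted to count from 1. Genes came from a RefSeq table of GRCm38.p6, which gives spans without exons, and 340 genes (108 protein-coding) listed within the first 3 Mb of a chromosome were left out, since such positions belong to unplaced scaffolds. Overlap required 1 bp. Distances ran from the peak centre to the nearest protein-coding gene end. The gene-free intervals, groups and densities were computed in Python 3.11.15 with numpy 2.4.6, pandas 2.3.3 and scipy 1.17.1, drawn with matplotlib 3.10.9, and tested on simulated data. With 1 library per antibody no p-value was computed. No genome sequence was used here, so the motifs, planned for peak centres, were searched in RefSeq promoter windows only.

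The peaks and the 16 gene lists were chosen with earlier results of these data known. The symbol Znf750 matched no gene, but Zfp750 did. Genes are named by rule: those nearest to the 20 highest-scoring distal peaks, bordering the 10 intervals with the most peaks or the highest density (at least 5 peaks and 100 kb), nearest to the 10 largest groups or the most peaks, the 4 leading genes of each list, and Trp63, Dlx3, Krt5, Krt14, Krt1 and Krt10. Genes beside the distance limits, the printed sequences, the longest empty intervals, the Iroquois, Efnb2, Runx1 and Ofcc1 intervals and the microRNAs were added to these. Nfib, further down the keratinocyte factor list, was also added. The alternatives are compared in the closing part.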

Additional observations from a re-analysis of the deposited data

How the results depend on the processing

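Of 55 alternative settings, 34 left the value within its counting error, or within 1.5 times for counts, and 21 moved it. The number of distal peaks, 3269, was 2065 at a limit of 50 kb, 1252 with genes of every RefSeq type and 1510 for DLX3 peaks at or above the median score. The share with a marked nearest gene, 79.7%, was 65.1% with H3K4me3 peaks at or above their median score, 95.1% with either border gene and 83.2% with a 5 kb window. The share within 10 kb of another distal peak, 36.9%, was 32.5% with genes of every type, 25.4% with the higher-scoring DLX3 peaks, 38.8% with the higher-scoring H3K4me3 peaks, 24.6% for a gap of 5 kb and 50.1% for a gap of 20 kb. The share in deserts, 13.6%, was 11.3% at a limit of 10 kb, 19.1% at 50 kb, 20.05% with genes of every type, 33.9% for intervals of 500 kb and 3.64% for intervals of 2 Mb. The number of groups of 4 or more, 39, was 22 at a limit of 50 kb, 11 with genes of every type, 8 with the higher-scoring DLX3 peaks, 17 for a gap of 5 kb and 100 for a gap of 20 kb. These moves follow from the definitions, which change the peaks, genes or lengths counted. Keratinocyte factor genes nearest to a distal peak stayed between 31 and 48, beside 44 as reported. The share on the side of the marked gene stayed between 60.0% and 62.5%, under alternatives chosen after seeing the data. No paired analysis was possible because each antibody had 1 library. Whether the distal peaks recur in another library, and how many reads support each, cannot be read from these lists.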
